A study of Mus musculus with 6 samples.

Results

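The 10 genes described here encode alpha tubulins (Tuba1a, Tuba1b, Tuba3a, Tuba3b, Tuba4a and Tuba8) and beta tubulins (Tubb2a, Tubb3, Tubb4b and Tubb5) of the mouse. They were taken by name: each is the 1 row of the deposited count files whose Ensembl identifier GENCODE release M21 gives that symbol, so that 10 of 51826 listed genes are members and all 10 passed the filter on low counts. RNA came from the whole testis of 8-week-old C57BL/6J mice, with 3 samples labelled KIFC1 knockout (KO) and 3 labelled wild type (WT). The sources used here name neither the allele nor the way the knockout was made, and no other treatment is named for either group. Whether samples of 1 group are separate mice is not stated in the labels. The p-values therefore reflect how far these samples vary, and that variation may be technical.

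An alpha and a beta tubulin form a dimer, and dimers stack end to end into the wall of the microtubule. The isotypes are alike along most of their length and differ mainly in a short acidic tail at the carboxyl end, where enzymes add or remove glutamate, glycine and tyrosine. Germ cells build several microtubule structures in turn: the spindles of the meiotic divisions, the manchette that surrounds the head of the elongating spermatid, and the axoneme of the sperm tail. KIFC1 is a kinesin motor that walks towards microtubule minus ends, so tubulin makes up the track on which it works.

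The end of the coding sequence is shown for 8 members because it encodes the tail by which isotypes are told apart. Each line gives the last 45 bases of the coding strand 5′ to 3′, read from the GENCODE M21 transcript on GRCm38, with the last codon before the stop in capitals. Of the alpha members, 4 are shown.
Tuba3a: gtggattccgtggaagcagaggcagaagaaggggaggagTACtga
Tuba3b: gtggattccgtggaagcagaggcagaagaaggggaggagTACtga
Tuba4a: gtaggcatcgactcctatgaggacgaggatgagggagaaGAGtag
Tuba8: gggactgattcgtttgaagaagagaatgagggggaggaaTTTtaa
Tuba3a (chr6:125278358-125278402, minus strand) and Tuba3b (chr6:145621343-145621387, plus strand) had the same 45 bases and ended in TAC, a tyrosine codon. Tuba4a (chr1:75215622-75215666, minus strand) ended in GAG, a glutamate codon, so its protein is made without the terminal tyrosine that other alpha tubulins lose and regain. Tuba8 (chr6:121226035-121226079, plus strand) ended in TTT, a phenylalanine codon.

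The 4 beta members carried other ends.
Tubb4b: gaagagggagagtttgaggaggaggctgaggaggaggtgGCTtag
Tubb5: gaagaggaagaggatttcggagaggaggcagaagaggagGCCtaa
Tubb2a: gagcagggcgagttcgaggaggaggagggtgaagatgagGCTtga
Tubb3: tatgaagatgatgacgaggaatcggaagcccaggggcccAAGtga
Tubb4b (chr2:25222308-25222352, minus strand), Tubb5 (chr17:35834982-35835026, minus strand) and Tubb2a (chr13:34074468-34074512, minus strand) ended in an alanine codon, and Tubb3 (chr8:123421638-123421682, plus strand) in AAG, a lysine codon. Across whole coding sequences, Tuba1a and Tuba1b were identical at 98.3% of bases and Tuba3a and Tuba3b at 97.0%. The other pairs of alpha members were identical at 78.8% to 85.0% of bases, pairs of beta members at 81.5% to 84.6%, and an alpha with a beta member at 52.2% to 55.9%.

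How much sequence a gene shares with another gene bears on how well its reads could be assigned, because the sources used here do not give how reads with several matches were counted. Of the 100-base windows of the longest coding transcript, 12.3% in Tuba3a and 11.8% in Tuba3b occurred in a transcript of another annotated gene on either strand, mostly that of the other Tuba3 copy. The share was 30.6% in Tubb4b, where 27.4% of windows matched the pseudogene Tubb4b-ps1 on chromosome 5. It was 65.9% in Tuba1a, 73.0% in Tuba1b and 36.9% in Tubb2a, and Tuba1c or Tubb2b was the closest match of these genes. Tubb3 and Tubb5 shared no such window, so their levels do not depend on how repeated reads were handled at that length. Tuba4a and Tuba8 shared 46.7% and 12.5% of their windows with the overlapping genes Stk16 and Gm15856, and reads there cannot be assigned by strand, since the strand setting is not given.

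A stretch of the coding sequence shows that the Tuba3 copies can be told apart. Coding bases 313 to 372, counted from the A of the start codon, hold 9 of the 41 differences between the copies over 1353 bases, marked by capitals.
Tuba3a: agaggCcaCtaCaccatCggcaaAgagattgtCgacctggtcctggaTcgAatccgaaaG
Tuba3b: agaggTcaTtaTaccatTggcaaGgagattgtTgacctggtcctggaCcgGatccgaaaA
The longest run without a difference was 155 bases. The values of the members with shared windows are therefore uncertain to the degree that reads fell in those windows.

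The libraries differed in ways that bear on every value below. Totals ran from 32129093 to 38169198 counts in KO and from 29274603 to 38703606 counts in WT. Mitochondrial genes took 5.74%, 1.54% and 4.29% of counts in KO samples 1, 2 and 3, against 0.661% to 0.935% in WT samples, and KO sample 2 stood between the other KO samples and WT. Genes rich in G and C bases were lower in all 3 KO libraries: the rank correlation across genes of GC content with a library's deviation from the mean of all libraries was -0.263, -0.666 and -0.120 in KO, against 0.241, 0.522 and 0.527 in WT. Kifc1 itself, on chromosome 17, had 0.326, 0.737 and 0.282 counts per 1000000 counts (CPM) in KO, against 15.5, 16.1 and 14.7 CPM in WT, and matches the labels. Its paralog Kifc5b had 4.16, 6.83 and 3.32 CPM in KO, against 8.43, 9.29 and 9.50 CPM in WT. Kifc5b did not pass edgeR's test (adjusted p = 0.0744, and 0.336 with GC and length offsets). It passed the DESeq2 Wald test (0.0189) and edgeR's test without KO sample 2 (0.0130). Sequence shared by Kifc1 and Kifc5b was not measured. Values below are CPM after TMM scaling, and fold changes are KO over WT on the log2 scale from edgeR's quasi-likelihood test, with p-values adjusted by the Benjamini-Hochberg method over all 21518 genes tested.

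Per kilobase of exon, 3 genes held most of the mRNA of the 10 members. Tuba3a, Tuba3b and Tubb4b averaged 1035 ± 199, 829 ± 138 and 534 ± 57.4 CPM per kilobase in KO, against 1487 ± 106, 1363 ± 117 and 954 ± 68.7 CPM per kilobase in WT (SD, n = 3 each). Tuba8 followed at 299 ± 163 CPM per kilobase in KO and 186 ± 4.13 CPM per kilobase in WT. Over all 6 samples Tuba1a and Tuba1b came next, with means of 59.5 and 53.6 CPM per kilobase. Tubb3 and Tubb5 were at 23.7 and 23.2 CPM per kilobase, Tuba4a averaged 16.9 ± 2.29 CPM per kilobase in KO and 25.03 ± 5.59 CPM per kilobase in WT, and Tubb2a was lowest at 5.48 CPM per kilobase. The SD ranges of Tuba3a and Tuba3b overlapped within each group, and so did those of Tubb5 and Tuba4a in WT. The order of Tubb3, Tubb5 and Tuba4a turned round when the longest coding transcript was used as the length, so no order is read among them.

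**Figure D1:**
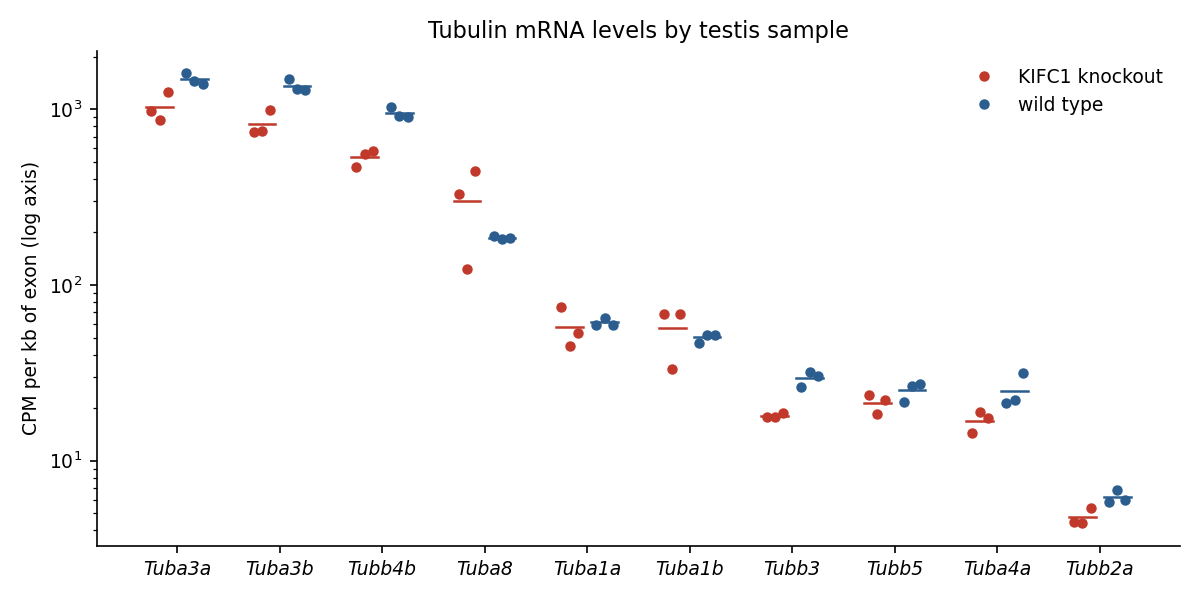
Level of each tubulin mRNA in CPM per kilobase of exon (log axis), with KO samples left of WT samples; points are samples and bars the group means. Tuba3a, Tuba3b and Tubb4b lie above the other genes within every sample, and the KO points of Tuba8, Tuba1a and Tuba1b spread on both sides of their WT points.

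Tubb4b, the beta tubulin of axonemes and the main beta member here, fell. Tubb4b (ENSMUSG00000036752, chr2:25222160-25224702, minus strand, mm10) had 979, 1162 and 1205 CPM in KO samples, against 2157, 1916 and 1901 CPM in WT samples. Every KO sample was below every WT sample, and the KO mean was 56.0% of the WT mean. The log2 fold change was -0.84 with a standard error (SE) of 0.15 and an adjusted p of 0.0194 in edgeR. In bulk RNA, fewer cells of a type and less RNA per cell cannot be told apart, here and in all results below. The call was lost when KO sample 1 (adjusted p = 0.0955), WT sample 1 (0.0737), WT sample 2 (0.0942) or WT sample 3 (0.0546) was left out of edgeR's fit, while the fold change stayed between -0.88 and -0.75. In the same order, these fits called 1, 5, 1 and 425 of all genes, against 1770 with all samples. Each library had a trend with GC content and with exon length. In a fit with offsets that remove these trends the log2 fold change of Tubb4b was -0.51 (SE 0.14) with an adjusted p of 0.0962 in edgeR.

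Other features share sequence or position with Tubb4b. Tubb4b-ps1 had 96.5, 113 and 158 CPM in KO samples, against 213, 190 and 185 CPM in WT samples, a log2 fold change of -0.68 (SE 0.19, adjusted p = 0.0632 in edgeR) that did not pass the test, and passed with library size alone (0.0441), without KO sample 3 (0.0483) and in DESeq2 (0.0324). When its counts were added to those of Tubb4b, an alternative chosen after the data were seen, the log2 fold change was -0.82 with an adjusted p of 0.0201 in edgeR. Fam166a, which overlaps the end of Tubb4b on the opposite strand, had 452, 214 and 512 CPM in KO samples and 243, 243 and 241 CPM in WT samples. Fam166a was thus higher in 2 of 3 KO samples, the direction opposite to Tubb4b.

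Tuba3a and Tuba3b encode the alpha tubulin of male germ cells from separate places on chromosome 6, and their products end alike. Tuba3b (ENSMUSG00000067338, chr6:145615757-145621479, plus strand, mm10) had 1319, 1342 and 1755 CPM in KO samples, against 2659, 2318 and 2281 CPM in WT samples. All 3 KO values lay below all WT values. Tuba3b fell, with a log2 fold change of -0.72 (SE 0.16, adjusted p = 0.0351 in edgeR). Leaving out KO sample 1 (adjusted p = 0.144), WT sample 1 (0.125), WT sample 2 (0.130) or WT sample 3 (0.0805) ended the call in edgeR. Without the filter on low counts the adjusted p was 0.0518, and with the offsets the log2 fold change was -0.35 with an adjusted p of 0.181 in edgeR.

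Tuba3a (ENSMUSG00000067702, chr6:125278274-125286042, minus strand, mm10) had 1473, 1317 and 1896 CPM in KO samples, against 2425, 2192 and 2117 CPM in WT samples. The groups did not overlap, but KO sample 3 came close to the lowest WT sample. Its log2 fold change of -0.52 (SE 0.17, adjusted p = 0.0908 in edgeR) did not pass the test, and it passed with library size alone as the scaling, at an adjusted p of 0.0383. The ratio of Tuba3a to Tuba3b counts was 1.12, 0.982 and 1.08 in KO samples, against 0.912, 0.945 and 0.928 in WT samples. Every KO ratio was above every WT ratio, a difference that was not tested. With both copies summed, which removes the question of how their reads were split, the log2 fold change was -0.62 with an adjusted p of 0.0560 in edgeR.

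The sequences around the RefSeq starts of these genes are shown because the copies that encode alike tails differ there, and because Tubb4b stands out by a motif count. Each line holds 300 bases from RefSeq on GRCm38.p6, from 250 bases before the annotated start to 50 after it, 5′ to 3′ on the strand of the gene. CCAAT, the box bound by NF-Y, and its reverse complement ATTGG are in capitals.
Tubb4b: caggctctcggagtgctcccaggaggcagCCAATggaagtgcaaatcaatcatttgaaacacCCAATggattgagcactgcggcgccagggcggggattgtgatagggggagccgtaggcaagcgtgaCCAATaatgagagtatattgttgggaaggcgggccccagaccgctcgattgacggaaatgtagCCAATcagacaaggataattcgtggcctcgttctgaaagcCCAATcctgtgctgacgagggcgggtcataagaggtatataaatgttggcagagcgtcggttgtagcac
Tuba3b: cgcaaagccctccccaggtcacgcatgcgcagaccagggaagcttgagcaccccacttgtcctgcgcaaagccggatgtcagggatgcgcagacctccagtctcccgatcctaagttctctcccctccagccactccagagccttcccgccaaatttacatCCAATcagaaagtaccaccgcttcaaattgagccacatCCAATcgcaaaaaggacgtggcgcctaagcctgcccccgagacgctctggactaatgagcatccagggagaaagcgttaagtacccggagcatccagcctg
Tuba3a: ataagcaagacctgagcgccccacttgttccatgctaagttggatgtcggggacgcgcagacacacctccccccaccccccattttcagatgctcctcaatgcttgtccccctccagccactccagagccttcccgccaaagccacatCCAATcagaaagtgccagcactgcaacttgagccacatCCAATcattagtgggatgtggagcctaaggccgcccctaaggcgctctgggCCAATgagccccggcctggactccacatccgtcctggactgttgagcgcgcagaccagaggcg
Tubb3: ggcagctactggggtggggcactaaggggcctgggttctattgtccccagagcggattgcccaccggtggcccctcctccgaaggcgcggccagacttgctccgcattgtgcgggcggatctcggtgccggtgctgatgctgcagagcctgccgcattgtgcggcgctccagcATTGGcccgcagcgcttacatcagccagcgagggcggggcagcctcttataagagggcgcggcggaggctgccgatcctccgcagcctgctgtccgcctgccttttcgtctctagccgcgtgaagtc
The Tubb4b window (chr2:25224653-25224952, minus strand) held 5 such matches, that of Tuba3a (chr6:125286032-125286331, minus strand) 3, that of Tuba3b (chr6:145615713-145616012, plus strand) 2 and that of Tubb3 (chr8:123411303-123411602, plus strand) 1. Tubb5 had 2, Tuba1a had 1, and no match was found in the windows of Tuba1b, Tuba4a, Tuba8 and Tubb2a. Of 32851 mouse promoter windows of the same length, 37.4% held at least 1 match on either strand, 11.7% at least 2, 3.37% at least 3 and 0.271% at least 5. These are matches of letters, not sites of binding. Tuba3a and Tuba3b windows were identical at 60.8% of aligned columns, below the 97.0% of their coding sequences. They were still the most alike pair, since windows of the other pairs of members were identical at 40.1% to 48.5%. Most of the Tuba3b window lies inside the gene as GENCODE M21 draws it, so that window is not all sequence before the gene.

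Tubb3, a beta tubulin best known from neurons and described in testis in Sertoli cells, also fell. Tubb3 (ENSMUSG00000062380, chr8:123411424-123422015, plus strand, mm10) had 33.2, 32.9 and 34.9 CPM in KO samples, against 49.3, 59.5 and 56.4 CPM in WT samples. The 3 KO values were close together and all below WT. Its log2 fold change was -0.71 (SE 0.15, adjusted p = 0.0261 in edgeR). The call was lost without KO sample 1 (adjusted p = 0.120), KO sample 3 (0.0693), WT sample 1 (0.0634), WT sample 2 (0.132) or WT sample 3 (0.0737) in edgeR, and the log2 fold change with offsets was -0.26 with an adjusted p of 0.340. Summed over 10 Sertoli marker genes, of which Clu and Cldn11 were the most abundant, levels ran from 1128 to 1702 CPM in KO and from 812 to 1164 CPM in WT, with 1 (Rhox8) called higher and 0 lower. With the offsets, edgeR called 1 of them higher, against 0.167% of all genes called, and their median log2 fold change moved from 0.12 to 0.46. At an unadjusted p under 0.05 in edgeR, 4 were higher and 0 lower, against 27.1% of all genes in either direction. DESeq2 called 3, against 17.3%. The part of Sertoli cells in the Tubb3 result was not tested.

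Tuba4a encodes an alpha tubulin that ends in glutamate, without a terminal tyrosine. Tuba4a (ENSMUSG00000026202, chr1:75214228-75219865, minus strand, mm10) had 53.1, 69.7 and 64.6 CPM in KO samples, against 79.2, 82.2 and 116 CPM in WT samples. The groups did not overlap, and its log2 fold change of -0.57 (SE 0.19, adjusted p = 0.0985 in edgeR) did not pass the test. Stk16, a kinase gene that overlaps Tuba4a on the opposite strand, had 32.1, 30.8 and 30.4 CPM in KO samples, against 59.9, 53.9 and 51.2 CPM in WT samples. Both genes were lower in every KO sample, and their shared reads cannot be told apart by strand.

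Tuba8, the alpha tubulin that ends in phenylalanine, is known from testis and muscle, and its KO samples disagreed. Tuba8 (ENSMUSG00000030137, chr6:121210696-121226854, plus strand, mm10) had 748, 278 and 1004 CPM in KO samples, against 432, 415 and 417 CPM in WT samples. KO samples 1 and 3 were above all WT samples and KO sample 2 below them all. Its log2 fold change of 0.68 (SE 0.37, adjusted p = 0.275 in edgeR) did not pass the test. Without KO sample 2 it was 1.06 with an adjusted p of 0.00863 in edgeR, in a fit that called 14.3% of all genes. With any other sample left out it ran from 0.30 to 0.73, with adjusted p-values from 0.400 to 0.648 in edgeR.

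Tuba1b, which is made in most cell types, showed the same split among KO samples. Tuba1b (ENSMUSG00000023004, chr15:98931425-98934565, minus strand, mm10) had 128, 62.6 and 129 CPM in KO samples, against 88.0, 97.6 and 97.4 CPM in WT samples. Its log2 fold change was 0.18 (SE 0.26, adjusted p = 0.699 in edgeR) with all samples, and 0.45 with an adjusted p of 0.0467 without KO sample 2. With any other sample left out it ran from 0.02 to 0.20, with adjusted p-values from 0.735 to 0.979 in edgeR. Tuba1c, its neighbour in sequence, had 146, 60.2 and 152 CPM in KO samples, against 104, 124 and 126 CPM in WT samples. KO sample 2 was again the lowest of all 6. Of the 100-base windows of Tuba1b, 48.6% occurred in Tuba1c, so both values may hold shared reads. With Tuba1a, Tuba1b and Tuba1c summed, the log2 fold change was 0.032 with an adjusted p of 0.951 in edgeR. Fam166a, beside Tubb4b, was low in KO sample 2, and mitochondrial genes took the smallest share of KO counts there. What sets KO sample 2 apart was not tested.

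Tuba1a, an alpha tubulin best known from developing neurons, had overlapping groups. Tuba1a (ENSMUSG00000072235, chr15:98949837-98953703, minus strand, mm10) had 134, 80.6 and 96.6 CPM in KO samples, against 107, 117 and 107 CPM in WT samples. Its log2 fold change was -0.09 (SE 0.19, adjusted p = 0.805 in edgeR), and 0.19 with the offsets, so its sign turned with the processing.

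Tubb5, a beta tubulin made in most cell types, and Tubb2a, known from brain, were also below the threshold. Tubb5 (ENSMUSG00000001525, chr17:35833921-35838306, minus strand, mm10) had 78.8, 61.0 and 73.9 CPM in KO samples, against 71.8, 88.3 and 90.3 CPM in WT samples. The groups overlapped, and the log2 fold change was -0.23 (SE 0.16, adjusted p = 0.398 in edgeR). Tubb5 lies on chromosome 17, as does Kifc1 (chr17:33875659-33890661). Tubb2a (ENSMUSG00000058672, chr13:34074274-34078007, minus strand, mm10) had 7.23, 7.09 and 8.67 CPM in KO samples, against 9.34, 11.0 and 9.60 CPM in WT samples. All KO values were below all WT values, with a log2 fold change of -0.38 (SE 0.19, adjusted p = 0.232 in edgeR).

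Over the 10 members, 3 fell (Tubb4b, Tuba3b and Tubb3) and 0 rose in edgeR. Of all tested genes, 5.12% were called lower, 3.11% higher and 8.23% in either direction. The members are not the whole family, and they were chosen with earlier results of these data known. Of the alpha and beta tubulins outside them, Tuba1c, Tubal3, Tubb2b and Tubb6 were tested and not called in edgeR. At an unadjusted p under 0.05, 5 members were lower and 0 higher, against 15% of all genes lower and 27.1% in either direction, and the DESeq2 Wald test called the same 3 genes lower, against 9.22% of the genes it tested called lower and 17.3% in either direction. Every KO sample was below every WT sample for 6 of 10 members, against 18.1% of all genes, and no member had every KO sample above WT, against 14.6%. The median log2 fold change was -0.45 over the members and -0.01 over all genes tested. Leaving out KO sample 1 or any 1 WT sample left 0 members called in edgeR. Over all genes, calls numbered 1 without KO sample 1, 5 without WT sample 1, 1 without WT sample 2 and 425 without WT sample 3. Leaving out KO sample 3 left 2 members called (Tuba3b and Tubb4b), against 1.47% of all genes. Leaving out KO sample 2 left 5, of which Tuba8 and Tuba1b were higher, against 14.3% of all genes. In each fit without KO sample 1 or any 1 WT sample, 4 or 5 members had an unadjusted p under 0.05. A fit with the replicate number as a block called 0 members, against 0.0976% of all genes, and 5 members had an unadjusted p under 0.05 in it. The share of all genes at that unadjusted threshold, 27.1% with all samples and no block, was not taken in these fits.

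**Figure D2:**
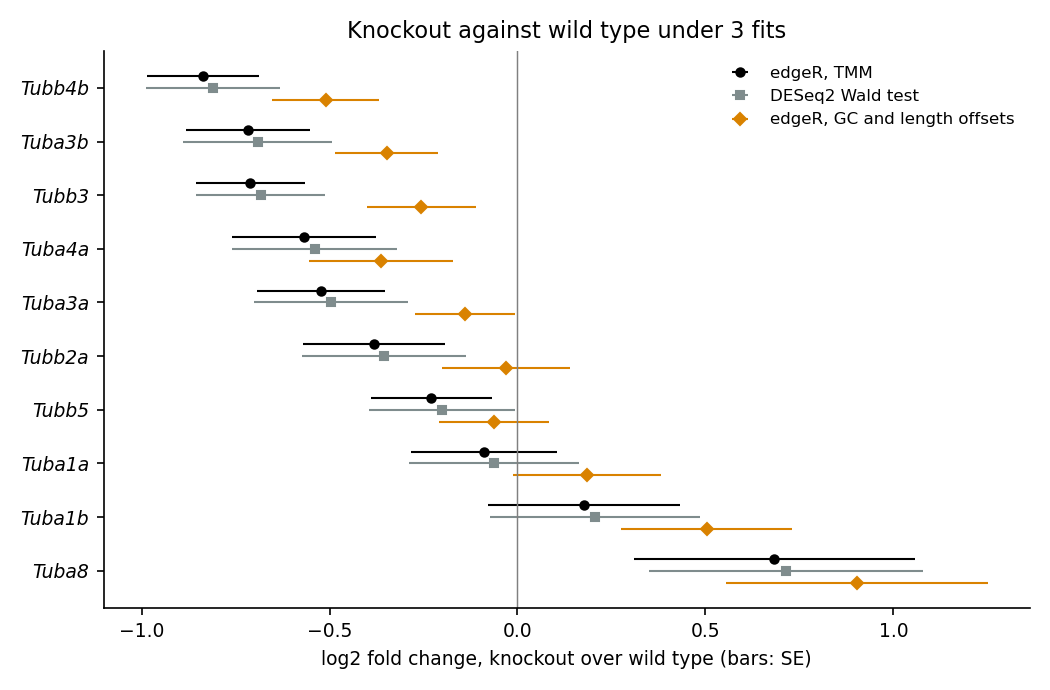
Log2 fold change, KO over WT, of each member in edgeR with TMM scaling, in the DESeq2 Wald test and in edgeR with GC and length offsets; bars are SE. The 3 called members lie lowest in the first fit, and the offsets move every member upwards.

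The members have GC contents from 52.0% (Tubb5) to 57.9% (Tubb3), a range in which genes as a whole were lower in KO. Among the 5397 tested genes in that range the median log2 fold change was -0.26, 9.65% were called lower and 0.278% higher, and 31.4% had every KO sample below every WT sample. Read against these genes, the members' counts of lower calls and of separated groups stand nearer to their background than against all genes. With the offsets, edgeR called 0 members and 0.167% of all genes, and the members' median was -0.10 against 0.01 for all genes. In that fit 3 members had an unadjusted p under 0.05: Tubb4b and Tuba3b were lower, and Tuba8 was higher (log2 fold change 0.90). The share of all genes at that threshold was not taken in that fit. In corrected CPM, Tubb4b (1106, 1404 and 1237 in KO, against 1878, 1699 and 1758 in WT) and Tuba3b (1521, 1668 and 1810 in KO, against 2254, 2023 and 2085 in WT) were the members whose groups did not overlap. The share of all genes with separated groups was not taken in corrected CPM, so this count has no background here. Whether the GC trend comes from the libraries or from the tissue was not tested.

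**Figure D3:**
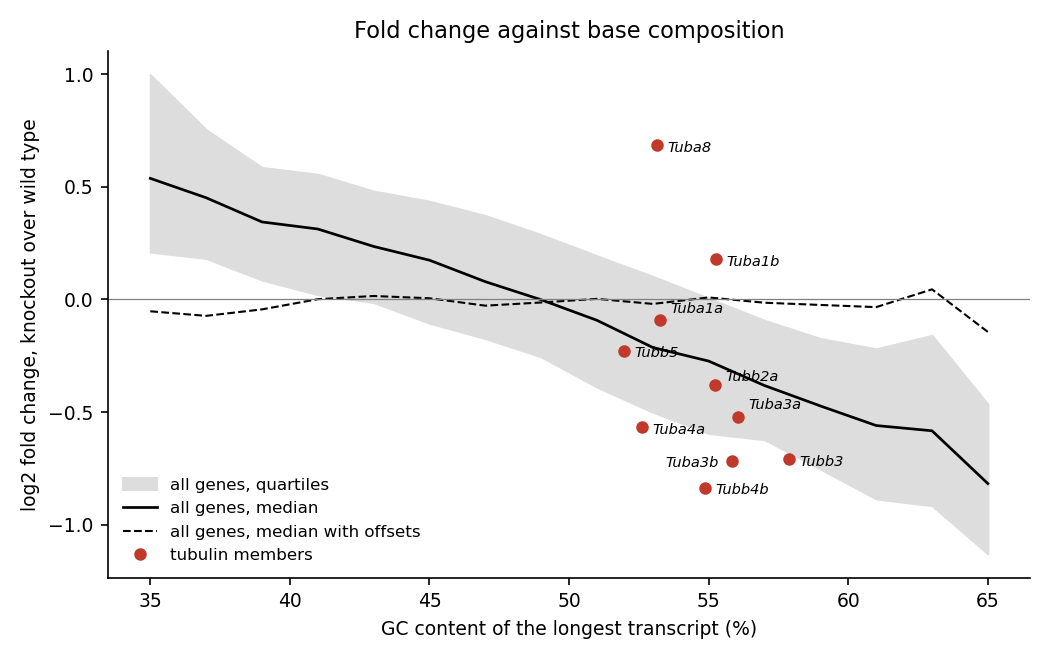
Log2 fold change, KO over WT, against GC content (%) of the longest transcript. The black line and grey band are the median and quartiles of all genes in bins of GC content, the dashed line the median with offsets and the red points the 10 members. The median of all genes falls as GC content increases, and Tubb4b, Tuba3b, Tubb3 and Tuba4a lie below the band while Tuba8 and Tuba1b lie above it.

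The make-up of the 10 members was described from CPM per kilobase of the union of exons, with no test. Tuba1c and the other tubulins outside the members are not in these sums. The 10 members together had 4954, 4413 and 6268 CPM in KO samples, against 8077, 7296 and 7194 CPM in WT samples, or 0.478%, 0.484% and 0.576% of counts in KO and 0.783%, 0.741% and 0.748% in WT. Every KO sum was below every WT sum. The alpha members summed to 4.29, 3.10 and 4.54 times the beta members per kilobase in KO samples, against 3.15, 3.13 and 3.10 times in WT samples. The ratio was thus higher in KO samples 1 and 3 and close to WT in KO sample 2. The size of the ratio depends on the length used. Over all samples Tubb4b averaged 744 CPM per kilobase here, and 972 with its longest coding transcript as the length. Tuba8 made up 15.0%, 6.66% and 15.7% of the alpha members in KO samples, against 5.58%, 5.95% and 6.11% in WT samples, and both Tuba3 genes together 77.9%, 88.1% and 79.4% in KO, against 90.7%, 89.5% and 89.2% in WT. Tubb4b made up 91.1%, 93.2% and 92.6% of the beta members in KO samples, against 95.1%, 93.4% and 93.5% in WT samples. Tubb4b was the main beta member in every sample, and its share was lower in every KO sample than in any WT sample, with KO sample 2 close to WT samples 2 and 3.

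**Figure D4:**
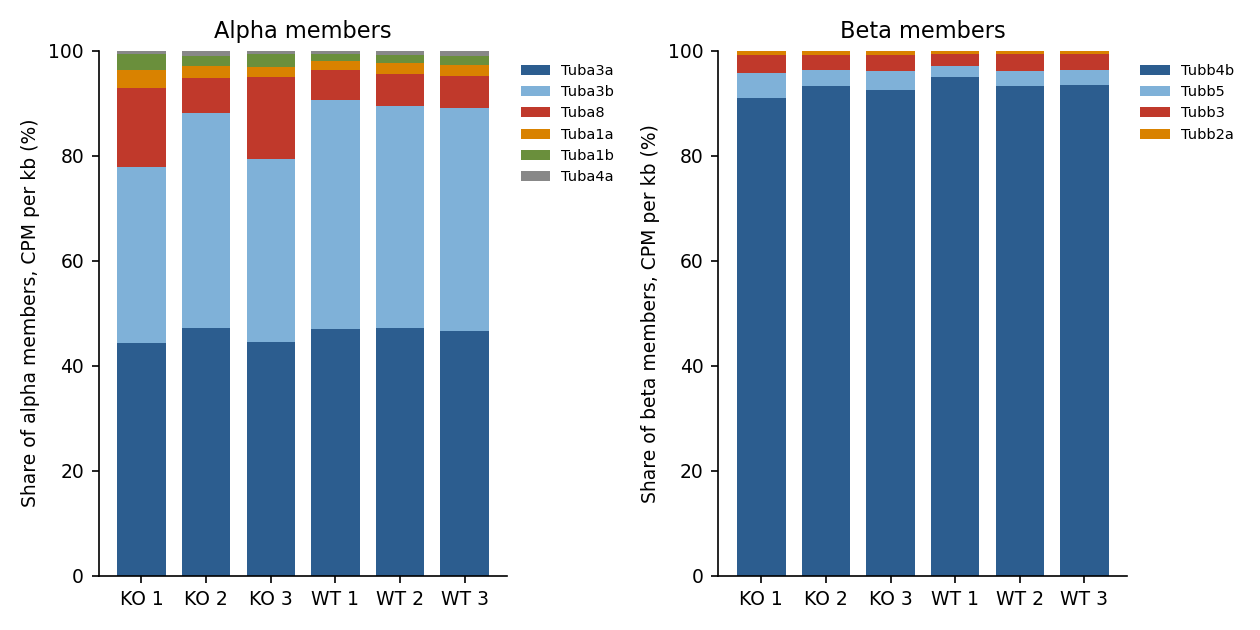
Share (%) of each gene in the summed CPM per kilobase of the 6 alpha members (left) and the 4 beta members (right), for each sample, KO left of WT. Tuba8 takes 15.0% and 15.7% of the alpha members in KO samples 1 and 3, against 6.66% in KO sample 2 and at most 6.11% in WT.

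Some members varied alike over the 6 samples, given here as a description. Pearson's r of log2 CPM was 0.97 between Tuba3a and Tuba3b, 0.97 between Tuba3b and Tubb4b, and 0.93 between Tuba1b and Tuba8. Among 17353 other tested genes, the most like Tuba3a were Tut1, Sf3b5 and Cog1, each with an r of 0.998, and 1055 genes had an r above 0.9. The most like Tubb4b were Pgs1, Tmem239 and Pomgnt1, with an r of at least 0.999, and 1731 genes had an r above 0.9. All these genes were read from the same 6 libraries and share their depth, base composition and group.

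Genes that fold, modify or organise tubulin were taken in lists, and their calls are to be read against the 5.12% of all genes called lower and the 3.11% called higher. Their median log2 fold changes ran from -0.26 in the folding cofactors to 0.17 in deglutamylation, against -0.01 over all genes tested. With the offsets, the 5 genes called in these lists had adjusted p-values from 0.122 (Svbp) to 0.465 (Agbl3) in edgeR. All 5 kept their call without KO sample 2 and lost it without KO sample 1 or any 1 WT sample, and without KO sample 3 only Tpgs1 kept it, with adjusted p-values over these fits from 0.0165 (Arl2) to 0.163 (Svbp). In edgeR with no expression filter the calls of Arl2 (adjusted p = 0.0524), Svbp (0.0632) and Agbl3 (0.0740) were lost, as were that of Agbl3 with library size alone (0.0868), that of Svbp with DESeq2 size factors (0.0511), and all 5 with the replicate block, from 0.0800 (Tpgs1) to 0.181 (Agbl3). Among 8 tested genes of the tubulin folding cofactors, which build the dimer from folded monomers, 2 fell and 0 rose. Tbcc, which releases the finished dimer, had 31.7, 53.1 and 47.4 CPM in KO samples, against 101, 81.4 and 78.0 CPM in WT samples (log2 fold change -0.98, SE 0.21, adjusted p = 0.0307 in edgeR). Arl2, the small GTPase that works with the cofactors, had 14.3, 22.4 and 19.2 CPM in KO samples, against 37.4, 34.8 and 30.6 CPM in WT samples (-0.88, SE 0.20, adjusted p = 0.0337 in edgeR). In neither gene did the groups overlap, and with the offsets the log2 fold changes were -0.34 for Tbcc and -0.59 for Arl2. Among 15 tested genes of the chaperonin CCT and prefoldin, which fold the monomers, edgeR called 0, with 2 lower and 0 higher at an unadjusted p under 0.05 and 1 called by DESeq2. Cct7, a CCT subunit, averaged 435 ± 111 CPM in KO and 730 ± 118 CPM in WT (SD, n = 3 each, log2 fold change -0.75, adjusted p = 0.0591 in edgeR), and Pfdn6, a prefoldin subunit, had a log2 fold change of -0.71 (adjusted p = 0.102). Pfdn6 (chr17:33938821-33940343) lies close to Kifc1 (chr17:33875659-33890661), and the part of that position in its value was not tested.

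Enzymes that modify the tubulin tails gave single calls in both directions. Among 15 tested genes of glutamylation and glycylation 1 fell and 0 rose. Tpgs1, a subunit of the polyglutamylase complex that acts on sperm axonemes, had 11.4, 9.73 and 16.3 CPM in KO samples, against 32.4, 25.8 and 23.8 CPM in WT samples (log2 fold change -1.13, SE 0.23, adjusted p = 0.0264 in edgeR). Its transcript has a GC content of 65.3%, and with the offsets its log2 fold change was -0.41. Ttll5, a glutamylase, had 501, 288 and 550 CPM in KO samples, against 287, 286 and 296 CPM in WT samples (0.62, adjusted p = 0.118 in edgeR), and KO sample 2 was again at the WT level. Without that sample the log2 fold change of Ttll5 was 0.86 with an adjusted p of 0.00753 in edgeR. With any other sample left out it ran from 0.47 to 0.64, with adjusted p-values from 0.211 to 0.318 in edgeR. Ttll8, a glycylase, had a log2 fold change of 0.42 (adjusted p = 0.118 in edgeR).

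Among 6 genes of deglutamylation, whose products trim glutamate from the tails, 1 rose and 0 fell. Agbl3, a deglutamylase, had 77.6, 84.7 and 83.9 CPM in KO samples, against 51.6, 59.3 and 59.0 CPM in WT samples (log2 fold change 0.53, SE 0.14, adjusted p = 0.0483 in edgeR, and 0.18 with the offsets). All KO values were above all WT values. Agtpbp1, another deglutamylase, had a log2 fold change of 0.47 (adjusted p = 0.0592 in edgeR). Among 7 genes of tyrosination and acetylation 1 fell: Svbp, the partner of the vasohibins that remove the terminal tyrosine, had 27.5, 32.6 and 39.0 CPM in KO samples, against 64.0, 49.6 and 53.1 CPM in WT samples (-0.75, SE 0.18, adjusted p = 0.0401 in edgeR, and -0.45 with the offsets). Hdac6, a tubulin deacetylase, had a log2 fold change of -0.36 (adjusted p = 0.343 in edgeR).

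In the other lists edgeR called 0 genes in either direction, and their counts at an unadjusted p under 0.05 and in DESeq2 are to be read against 27.1% and 17.3% of all genes. Of 8 tested genes of the other tubulins, Tubb6 had a log2 fold change of -0.56 (adjusted p = 0.0539) and Tubb2b of -0.85 (adjusted p = 0.0608) in edgeR; 2 were lower at an unadjusted p under 0.05, and DESeq2 called 2. Of 10 genes of the gamma-tubulin ring complex, which starts new microtubules, 2 were lower at an unadjusted p under 0.05 and DESeq2 called 0. The smallest p-values there were those of Mzt2 (-0.53, adjusted p = 0.173 in edgeR) and Tubgcp6 (-0.46, adjusted p = 0.176). Both genes of tubulin mRNA autoregulation, by which cells with much free tubulin degrade tubulin mRNA, were tested and had no unadjusted p under 0.05 and no call in DESeq2. Ttc5, which recognises the nascent tubulin chain, had a log2 fold change of -0.52 (adjusted p = 0.204 in edgeR), and Cnot11, of the deadenylase complex, 0.08 (adjusted p = 0.826). Of 8 tested severing genes, 0 had an unadjusted p under 0.05 and DESeq2 called 0, and Katnbl1 had a log2 fold change of 0.26 (adjusted p = 0.458 in edgeR).

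**Figure D5:**
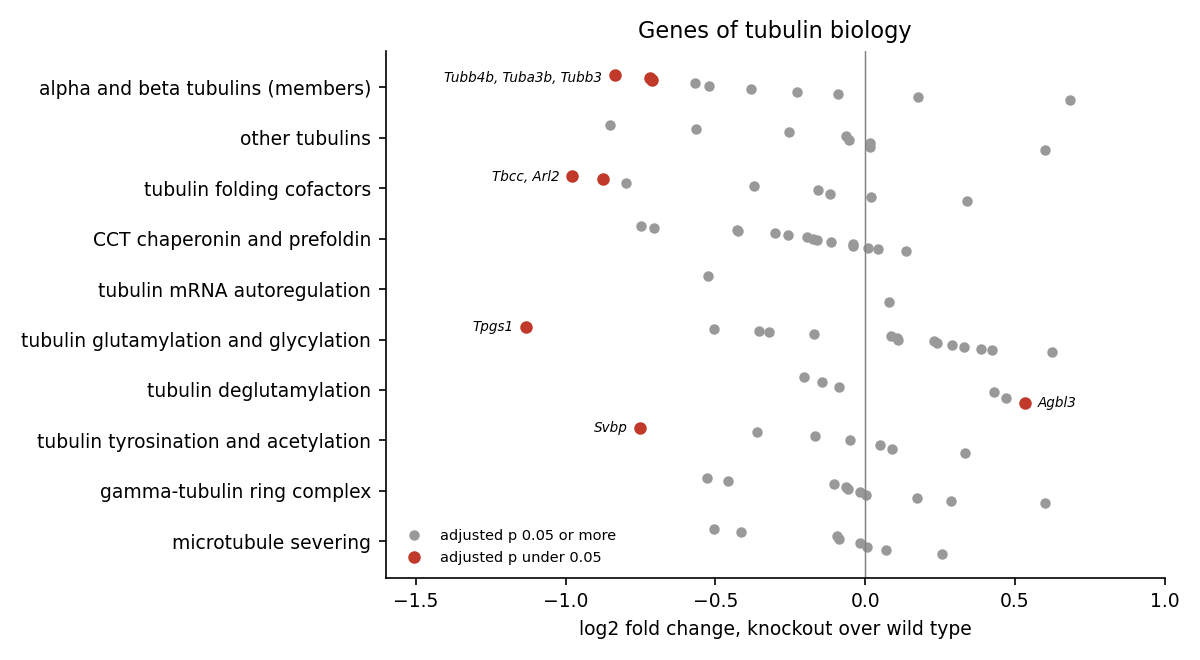
Log2 fold change, KO over WT, of the members and of the genes in each list of tubulin biology; points are genes, spread vertically for legibility, and red marks an adjusted p under 0.05 in edgeR. Red points lie at the left among the members and in 3 lists, and Agbl3 is the 1 red point at the right.

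Marker genes of testis cell types are given beside these results. Their calls are to be read against the 5.12% of all genes called lower and the 3.11% called higher. Summed over 8 genes each, elongating spermatid markers, led by Prm2 and Smcp, ran from 16933 to 26263 CPM in KO and from 21616 to 23396 CPM in WT, with 1 gene called higher (Smcp) and 2 lower (Prm1 and Tnp2). Smcp, the mitochondrial capsule gene of sperm, had 7584, 2206 and 9260 CPM in KO samples, against 1549, 1934 and 1861 CPM in WT samples. Without Smcp, a sum added after the data were seen, the other 7 markers had 14757, 14727 and 17002 CPM in KO samples, against 21846, 19682 and 20894 CPM in WT samples. These sums of 7 markers were lower in every KO sample than in any WT sample, while the sums of all 8 overlapped. The levels of the protamine genes Prm1 and Prm2 and of the transition protein gene Tnp2 were also lower in every KO sample. Those of Tnp1, Odf1, Akap4 and Oaz3 are not given here. Of all 8 markers, 3 were lower and 1 higher at an unadjusted p under 0.05 in edgeR, against 15% of all genes lower and 27.1% in either direction. Round spermatid markers, led by Spag6l and Tssk1, ran from 1092 to 1319 CPM in KO and from 1105 to 1472 CPM in WT, with 1 called higher (Lrriq1). Spermatocyte markers, led by Piwil1 and Ccna1, ran from 1287 to 1326 CPM in KO and from 1158 to 1174 CPM in WT, with 3 called higher (Sycp1, Smc1b and Mybl1). The round spermatid sums overlapped between groups and the spermatocyte sums did not. With the GC and length offsets, edgeR called 0 genes in the lists of elongating spermatids, round spermatids and spermatocytes. The median log2 fold change moved from -0.37 to -0.15 for elongating spermatid markers. It moved from 0.33 to 0.28 for round spermatid markers and from 0.48 to 0.06 for spermatocyte markers. Spermatogonial markers, led by Dmrt1 and Uchl1, ran from 92.5 to 108 CPM in KO and from 85.4 to 109 CPM in WT. Leydig markers, led by Insl3 and Cyp17a1, ran from 1020 to 1563 CPM in KO and from 610 to 1329 CPM in WT. The median log2 fold change of these 7 genes was 0.84, and 0.76 with the offsets. Among them edgeR called 0, and 3 were higher and 0 lower at an unadjusted p under 0.05, against 27.1% of all genes in either direction. DESeq2 called 3, against 17.3%. The part of cell numbers in the tubulin results was not tested.

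Sums of the remaining cell types also overlapped between groups. Peritubular myoid markers, led by Actg2 and Acta2, ran from 393 to 427 CPM in KO and from 383 to 414 CPM in WT. Macrophage markers, led by Lyz2 and Csf1r, ran from 42.6 to 57.6 CPM in KO and from 31.9 to 64.3 CPM in WT. Endothelial markers, led by Vwf and Cdh5, ran from 42.2 to 50.3 CPM in KO and from 27.2 to 55.7 CPM in WT. Red blood cell markers, led by Hbb-bs and Alas2, ran from 31.9 to 53.3 CPM in KO and from 52.6 to 96.9 CPM in WT, with 1 gene (Alas2) called lower and 0 called with the offsets.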

How the data were processed

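Whole-testis RNA was sequenced in 3 KIFC1 knockout (KO) and 3 wild-type (WT) samples. A Hieff NGS MaxUp mRNA kit and a NovaSeq were used, per the labels' protocols. The submitters' processing notes name Trimmomatic, HISAT2, HTSeq and the build mm10 but no version. The sources used here do not give the annotation, the strand setting or the treatment of repeated reads. The authors deposited raw counts per gene, 1 file a sample, not normalized. Totals were 29274603 to 38703606 counts, and 3 counts correspond to 0.0775 to 0.103 CPM; this floor allows for counting error alone.

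Symbols, exon lengths (union of exons) and GC content (longest transcript) came from GENCODE M21 on GRCm38. All 6 samples entered edgeR's two-sided quasi-likelihood test (version 4.0.16 under R 4.3.3), with TMM scaling, filterByExpr and no covariate. Genes were called at 0.05 after Benjamini-Hochberg adjustment over all genes tested. Each SE follows from the log2 fold change and its F statistic. Offsets removed the trends of each library with exon length and GC content, modelled by splines (5 degrees of freedom) over the 12707 genes whose mean log2 CPM exceeded 2. Other alternatives were the DESeq2 1.42.0 Wald test, its size factors, library size alone, other filters, a replicate block, mitochondrial genes left out, paralogs summed and each sample left out. The scripts were tested on simulated data. No pair of samples within a group agreed within sampling noise, with a chi-square per degree of freedom from 16.7 to 149.

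The members and gene lists were chosen with earlier results of these data known. Named were all members, Kifc1, the called genes and the 2 with the smallest p of each tubulin list, the 2 most abundant of each marker list, and the 3 genes most like the top alpha and beta member. Ttll5, genes that overlap or share sequence with a member, and marker genes named beside the most abundant ones were named after their values were seen. A gene that this rule names, and the coding ends of Tuba1a and Tuba1b, are not reported here.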

Additional observations from a re-analysis of the deposited data

How the results depend on the processing

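The count of genes called was 1770 in edgeR with all samples. It was 1010 with no expression filter, 3284 with the DESeq2 Wald test, 36 with the GC and length offsets, and from 1 to 3149 with 1 sample left out. Of the members, 3 were called with all samples, 0 with the offsets, and from 0 to 5 with 1 sample left out.

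The replicate numbers are shared by the groups, but the samples share only a number: deviations of same-numbered samples correlated at -0.48, -0.13 and -0.15, and 0 of 6 samples correlated best with their own number. With a replicate block, 21 genes and 0 members were called (5 members had an unadjusted p under 0.05, a threshold whose share of all genes was not taken in this fit), and with the replicate block and the offsets 7 genes and 0 members.

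Among the genes whose fold change is given by name, the sign turned for 3, which had not passed the test; other genes of the lists were not counted here. The log2 fold change of Tuba1a, -0.09 with all samples, was 0.19 with the offsets, 0.15 with the replicate block and the offsets, 0.032 with Tuba1a, Tuba1b and Tuba1c summed, and from -0.32 to 0.065 with 1 sample left out. That of Cnot11, 0.08, was from -0.027 to 0.25 with 1 sample left out. That of Katnbl1, 0.26, was -0.19 with the offsets, alone or with the block. The cause was not tested. Depth limits Tubb2a most among the members, at 250 to 432 counts a sample.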
